A study of Mus musculus with 2 samples.

Results

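The genes described here are those of 9 mouse granzymes (Gzma, Gzmb, Gzmc, Gzmd, Gzme, Gzmf, Gzmg, Gzmk and Gzmm) and of perforin (Prf1). The members are the accessible regions around them, chosen by position alone. A region entered when its peak touched the mm10 span of any of the 10 genes with 50 kb added on each side, called the window of the gene, and each peak was counted once. This gave 61 of the 85137 peaks of the control library and 51 of the 64910 peaks of the treatment library on the assembled chromosomes. ATAC-seq, which marks accessible DNA by the insertions of a transposase, had been run on mouse CD8+ T cells, with 1 library titled control and 1 titled treatment. A second label field reads "Treatment" for the first and "Combined treatment" for the second, and the genotype field of both gives only "global chromatin accessibility". The series title adds the name "Peml-1" for the cells without explaining it. No agent, dose, time, strain or age is given, so control and treatment below mean only the libraries with those titles. Each group had a single library and no replicate, so the groups could not be tested against each other, and each value compares these libraries and not the conditions.

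Granzymes are serine proteases that cytotoxic lymphocytes store in granules, bound to the proteoglycan serglycin, and release onto a target cell. Perforin forms pores that let granzymes reach the cytosol of the target, where granzyme B cuts caspases and other proteins after aspartate. Naive CD8+ T cells hold little of these proteins, and their genes are opened and transcribed as the cells become effectors, with the factors T-bet, Eomes and Runx3 among those known to act there. In the mouse, Gzmb, Gzmc, Gzmf, Gzmg, Gzmd and Gzme stand in a row on chromosome 14 next to cathepsin G and mast cell protease genes. Gzma and Gzmk lie near each other on chromosome 13, and Gzmm and Prf1 lie apart on chromosome 10.

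The sequences just before the start sites are shown first, because the results below turn on the peaks at these stretches. They come from RefSeq (GRCm38.p6, the assembly of mm10), whose promoter table held a start site for all 10 genes. Those of Gzmb, Gzmc, Gzma and Prf1, and that of Gzmm, which is not printed, were touched by a peak in both libraries. That of Gzmk was touched by none. Each printed sequence is read 5′ to 3′ towards the gene. Capitals mark letters that match a short motif on either strand: TGTGGT (Runx), TGANTCA (AP-1), CAGGAAG (ETS), TGACGT (cyclic AMP response element, CRE), TGGAAA (NFAT), GGTGTGA (T-box), CTTTGA (TCF) and CAGCTG (E-box). For Prf1 the stretch stops where the annotated span of the gene begins.
Gzmb (chr14:56262335-56262584, minus strand): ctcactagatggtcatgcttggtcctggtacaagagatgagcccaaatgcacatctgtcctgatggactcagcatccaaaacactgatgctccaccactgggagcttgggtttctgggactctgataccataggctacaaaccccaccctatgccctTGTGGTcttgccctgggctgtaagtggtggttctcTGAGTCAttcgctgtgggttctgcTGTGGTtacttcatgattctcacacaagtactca
Gzmc (chr14:56234658-56234907, minus strand): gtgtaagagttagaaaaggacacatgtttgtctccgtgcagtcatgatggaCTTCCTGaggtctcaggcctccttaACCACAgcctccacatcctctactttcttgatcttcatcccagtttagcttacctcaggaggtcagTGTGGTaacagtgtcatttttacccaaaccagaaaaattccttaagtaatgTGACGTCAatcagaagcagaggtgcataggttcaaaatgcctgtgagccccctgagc
Gzma (chr13:113100982-113101231, minus strand): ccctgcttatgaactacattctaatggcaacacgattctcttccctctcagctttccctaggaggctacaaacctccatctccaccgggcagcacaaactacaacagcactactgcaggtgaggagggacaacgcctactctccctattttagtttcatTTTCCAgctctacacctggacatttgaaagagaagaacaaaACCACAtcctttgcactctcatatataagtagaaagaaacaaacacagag
Prf1 (chr10:61297586-61297750, plus strand): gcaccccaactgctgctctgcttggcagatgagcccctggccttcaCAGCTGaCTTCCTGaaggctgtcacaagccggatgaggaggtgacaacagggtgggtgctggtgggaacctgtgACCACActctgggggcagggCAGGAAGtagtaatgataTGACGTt
Gzmk (chr13:113180966-113181215, minus strand): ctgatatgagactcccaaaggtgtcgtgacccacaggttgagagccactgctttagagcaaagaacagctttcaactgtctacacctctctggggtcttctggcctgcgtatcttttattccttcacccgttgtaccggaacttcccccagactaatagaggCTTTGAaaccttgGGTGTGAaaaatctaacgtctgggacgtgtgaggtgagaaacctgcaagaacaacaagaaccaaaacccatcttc

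The start peak of Gzmb had its summit 71 bp before the start site in both libraries, and the nearest motif letters were the AP-1 match, 13 bp from the summit, and a Runx match, 17 bp from it. At Gzmc the summit lay 158 bp before the start site in control and 159 bp in treatment, 10 bp from a Runx match in treatment. At Prf1 it lay 160 bp before the start site in both, between an ETS match at 31 bp and a Runx match at 30 bp. Within the 300 bases of the promoter table, 250 before and 50 after the start site, TGTGGT was found at 9 of the 10 genes, all but Gzmk, and in 16.8% of all 32851 promoters of that table. TGACGT was found at 5 of 10 and in 7.51% of all, CAGGAAG at 6 of 10 and in 13.3%, TGANTCA at Gzmb alone and in 7.81%, and GGTGTGA at Gzmk alone and in 3.98%. TTCNNNGAA (STAT) was found at 2 of 10 against 8.30%, TGGAAA at 2 against 21.4%, CTTTGA at 1 against 16.0%, CAGCTG at 1 against 16.3%, and GGGCGG (GC box) at 0 against 35.7%. These are matches of letters and not shown binding, and the promoters from Gzmc to Gzmg resemble each other, so that their matches are not independent.

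The promoters of Gzmc, Gzmd, Gzme, Gzmf and Gzmg resemble each other closely, and all but that of Gzmc were touched by no peak. Over 300 bases, the 10 pairs among Gzmc, Gzmd, Gzme, Gzmf and Gzmg were 73.5% to 93.4% identical, with Gzmd and Gzme closest, against 39.9% to 49.4% for the other 35 pairs of the 10 genes. The stretch around the CRE letters shows how alike they are. Capitals mark the position of TGACGT in Gzmc, and those letters are intact in Gzmc, Gzmf and Gzmg.
Gzmc (chr14:56234690-56234739, minus strand): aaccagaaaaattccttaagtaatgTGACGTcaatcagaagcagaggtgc
Gzmf (chr14:56211465-56211514, minus strand): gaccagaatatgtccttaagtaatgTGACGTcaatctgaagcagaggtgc
Gzmg (chr14:56159632-56159681, minus strand): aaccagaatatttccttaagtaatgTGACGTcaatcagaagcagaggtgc
Gzmd (chr14:56132630-56132679, minus strand): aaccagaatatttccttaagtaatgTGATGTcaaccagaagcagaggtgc
Gzme (chr14:56120663-56120712, minus strand): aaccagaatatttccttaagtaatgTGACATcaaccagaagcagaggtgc
Of these 5 promoters only that of Gzmc was touched by a peak, in both libraries, although Gzmf and Gzmg hold the same 6 letters. Reads from such near copies may map to several places. How the authors treated them is not given in the sources used here, and the part of this in the missing peaks was not tested.

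The label of CD8+ T cells was checked against lists of markers by their start peaks, within 1 kb of a listed gene start, and by the peaks in their windows. Window peaks were summed over the genes of a list, so a peak in overlapping windows was counted more than once. The list for CD8 T cells had a start peak at 6 of 6 genes with a listed start in both libraries, and 157 and 151 window peaks. Of these, Cd3e, Cd3d, Cd3g, Lck and Cd5 are shared with other T cells, so the check of the CD8 label rests on Cd8a alone, as Cd8b1 has no listed start. Markers of natural killer (NK) cells, which also hold granzymes, had one at 0 of 5, and 73 and 56 window peaks. Mast cell markers had one at 1 of 5 (Kit), with 35 and 23 window peaks. CD4 T cell markers had one at 1 of 2 (Zbtb7b), with 42 and 37, and B cell markers at 0 of 2, with 44 and 44. Myeloid markers had one at 2 of 2 in control (Lyz2 and Itgam) and 1 of 2 in treatment (Itgam), with 48 and 39. Over all protein-coding genes with a listed start, 65.5% had a start peak in control and 61.8% in treatment. The summed windows of all protein-coding genes had a treatment to control ratio of 0.785. The 4 control window peaks of Mcpt4, a mast cell marker, are the same 4 as those of Gzme, described below. In a bulk library, fewer cells with an open site and a site less open in each cell cannot be told apart. The part of other cell types in the values below was not tested. The peak lists hold no read totals. The nearest they give to a measure of depth is the lowest local background, 14.2 reads in control and 15.0 in treatment. Divided by the width of the narrowest peak, 176 and 186 bp, it differed between the libraries by a ratio of 1.006. The lowest background and the narrowest width need not come from the same peak, so equal depth is not shown.

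The windows held somewhat fewer peaks in treatment than in control, and no peak that was found in treatment only. The ratio of treatment to control was 51 to 61, or 0.836 (exact 95% interval 0.565 to 1.23, covering counting error only). Over the whole lists, where each peak is also counted once, it was 0.762. For the summed windows of all 21779 protein-coding genes, where a peak can be counted several times, it was 0.785. Of the 61 control peaks, 13 had no overlap with a treatment peak, and 48, or 78.7% (95% Wilson interval 66.9 to 87.1%), did. Control peaks without an overlap made up 29.2% of the whole control list. Of the 51 treatment peaks, 0 lacked an overlapping control peak (Wilson interval of the shared part 93.0 to 100%), against 6.8% of the whole treatment list. The sequence under the window peaks came to 31255 bp in treatment and 44584 bp in control, a ratio of 0.701, against 0.766 over the genome.

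**Figure D1:**
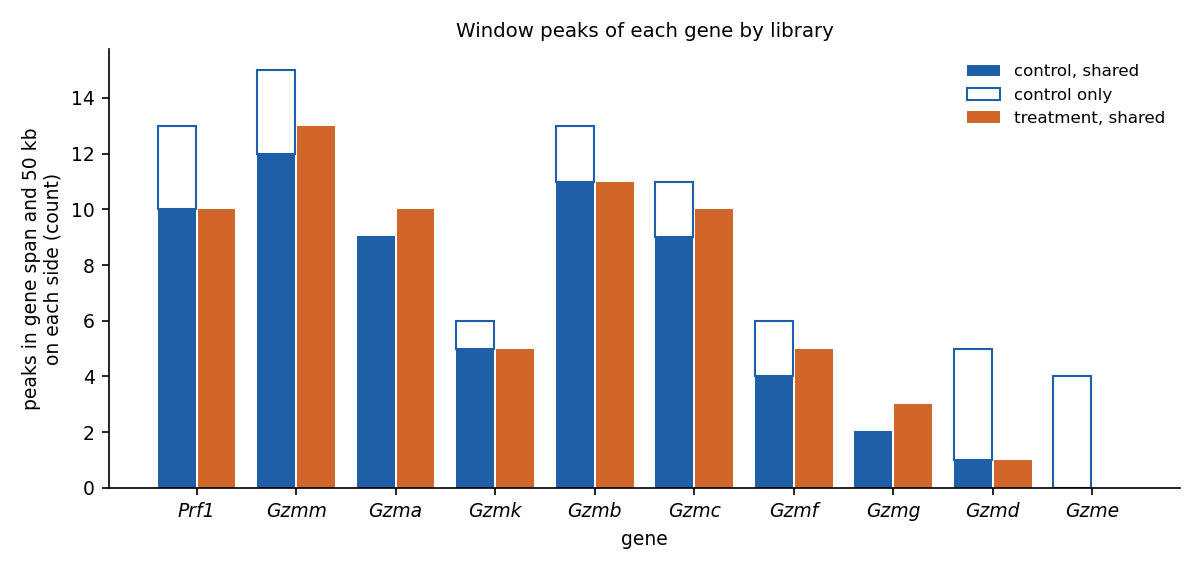
Peaks in the window of each gene (gene span and 50 kb on each side), as bars per gene, for the control library (blue, open part found in control only) and the treatment library (orange). Gzme had 4 control peaks and 0 treatment peaks, while Gzma and Gzmg had 1 more in treatment. Windows of neighbouring genes on chromosome 14 overlap, so a peak can stand in several bars.

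By gene, 8 of 10 windows had fewer peaks in treatment and 2 had more. Over all protein-coding genes 67% had fewer, 5.34% had more and 27.7% had as many, so the count of 8 is near the background, and windows that share peaks are not independent. The control and treatment counts were 13 and 10 at Prf1, 15 and 13 at Gzmm, 13 and 11 at Gzmb, 11 and 10 at Gzmc, and 6 and 5 at both Gzmf and Gzmk. At Gzmd they were 5 and 1, and at Gzme 4 and 0. Gzma had 9 and 10 and Gzmg 2 and 3. The extra treatment peak at each of these came from a control peak that was covered by 2 treatment peaks. Small differences in number turned with the settings. With lists of equal length, Gzmb (10 and 11), Gzmc (8 and 10) and Gzmf (4 and 5) had more in treatment. With 10 kb on each side, Gzmm (5 and 6) and Gzmf (1 and 2) had more, and among peaks of at least 100 reads Gzma had fewer (9 and 7).

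To compare the strength of a peak, the number of reads over its summit was worked back from the fold enrichment and −log10 p-value that the authors deposited, and is called its coverage. Of the 48 shared control peaks, 46 had a lower coverage in the strongest treatment peak overlapping them, wherever its summit lay, against 84.3% of all 60260 shared control peaks. Coverage was lower by more than 1.5-fold at 32 of 48 (66.7%), against 43.7% of all, and higher by more than 1.5-fold at 0 of 48, against 3% of all. The median ratio of treatment to control was 0.586 at the 48 and 0.708 over all, so coverage in treatment was lower in general. The median ratio of fold enrichment, which is relative to the local background, was 0.820 at the 48 and 0.839 over all. The medians of fold enrichment lay closer together than those of coverage. The local background that enters a fold can itself differ between the libraries, so no likeness is read from this. At 44 of 48 the treatment peak was narrower, against 77.6% of all, with a median width ratio of 0.818 against 0.912. Neighbouring peaks share a locus, so the 48 are not independent.

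**Figure D2:**
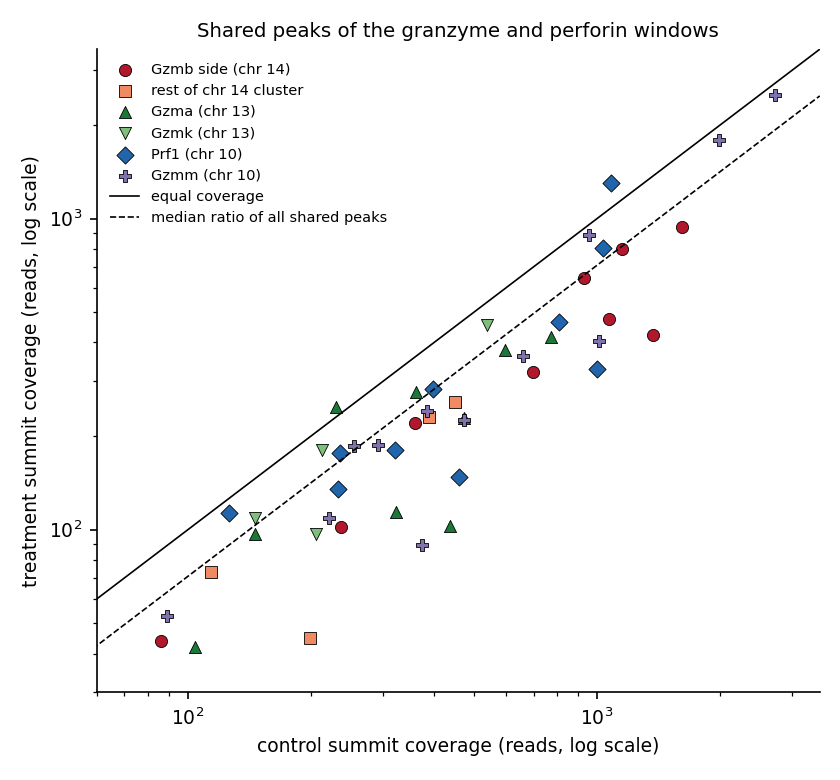
Summit coverage in reads, control on the horizontal and treatment on the vertical axis, both on log scales, for the 48 shared peaks of the granzyme and perforin windows, marked by the nearest gene. The solid line is equal coverage and the dashed line the median ratio of all shared peaks, 0.708. Only 2 points lie above the solid line, 1 beyond the end of Prf1 and 1 at the start of Gzma, where the summits lay 957 bp apart, and the 9 points near Gzmb all lie below the dashed line.

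Perforin had its start open in both libraries, and a site beyond its end was the strongest of its window. Prf1 (gene ID 18646) lies at chromosome 10, 61297751 to 61304684, on the plus strand, between Adamts14 and Pald1. The start peak had a coverage of 1031 reads in control against 805 in treatment, at a ratio of 0.781 (95% interval 0.711 to 0.857). This ratio lies above the median of all shared peaks, 0.708, and below the median of shared peaks within 1 kb of a gene start, 0.844. A peak inside the gene, 3387 bp after the start site, had 808 and 466 reads.

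The peak 8591 bp after the Prf1 start site, past the end of the gene, went the other way, with 1084 reads in control against 1303 in treatment, at a ratio of 1.20 (1.11 to 1.30). Its fold enrichment, a value that the authors' peak caller gave, was the highest of the Prf1 window in each list, 17.7 and 18.6. The peak 21995 bp before the start site, the next by fold in control (15.3), had 1001 and 328 reads, a ratio of 0.328 (0.288 to 0.372). So 2 sites of about equal control coverage on either side of Prf1 stood apart in treatment, at 1303 and 328 reads. The 3 control-only peaks lay 7112 bp before the start site (110 reads), 10772 bp after it (216 reads) and inside Pald1 (51 reads). A peak inside Pald1, 36883 bp after the Prf1 start site, had 460 and 148 reads.

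Granzyme B had the most strongly covered domain of the chromosome 14 cluster in both libraries, and its start peak had 422 reads in treatment against 1368 in control. Gzmb (gene ID 14939) lies at chromosome 14, 56258836 to 56262334, on the minus strand. The start peak ran from 56261702 to 56262788 in control and from 56261897 to 56262759 in treatment, with the summit on the same base, 56262405. The ratio of coverage was 0.308 (0.276 to 0.344). Among shared control peaks within 1 kb of any protein-coding start, 24.5% had a coverage lower by more than 1.5-fold and 2.86% by more than 3-fold.

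Fold enrichment did not show this difference at Gzmb, since it was 12.3 in control and 13.4 in treatment. The local background to which the summit was compared was 109.9 reads in control and 30.5 in treatment. Peaks with a lower coverage but a higher fold enrichment in treatment numbered 13 of 48, against 13.2% of all shared peaks. A fold enrichment is relative to the surrounding sequence, so values of the 2 lists are given here side by side or as a median ratio, and no change is read from them. The 2 control-only peaks of Gzmb lay inside the gene, 1531 and 2370 bp after the start site, with 180 and 221 reads and folds of only 1.76 and 2.15.

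**Figure D3:**
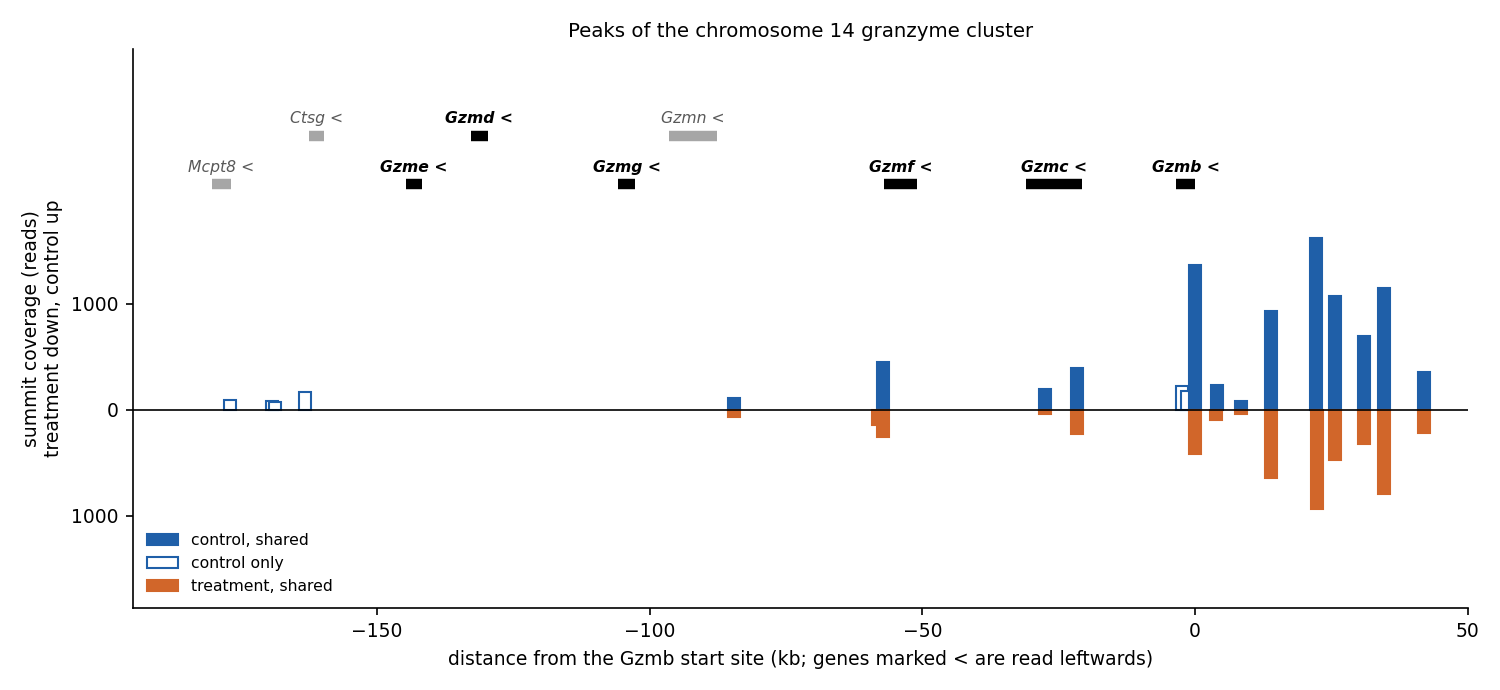
Summit coverage in reads along the chromosome 14 granzyme cluster, control upward and treatment downward, by distance in kb from the Gzmb start site. Bars stand at the summits with a fixed width, open bars are control peaks without a treatment overlap, and black boxes are the granzyme genes described, all read leftwards. The highest bars stand at the Gzmb start and on its upstream side (1615 reads at most), and there is no bar between Ctsg and Gzmn.

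Before the start of Gzmb, towards Atp12a, whose span begins 102335 bp beyond Gzmb, 8 peaks were found in each library and all were shared. They lay 3957 to 41997 bp before the start site in control. The strongest, at 22235 bp, had 1615 reads in control against 938 in treatment, at a ratio of 0.581 (0.535 to 0.630), and a width of 878 and 1137 bp. Those at 25649 and 31017 bp had 1072 and 474 reads, and 699 and 321 reads. Those at 13857 and 34585 bp had higher ratios, with 929 and 644 reads, and 1150 and 799 reads, ratios of 0.693 (0.626 to 0.767) and 0.695 (0.634 to 0.761). All 9 shared peaks nearest to Gzmb thus had fewer reads in treatment, 7 of them by more than 1.5-fold, and the start peak had the lowest ratio of the 9. The highest fold enrichment of the Gzmb window was 19.2 in control, at 41997 bp, and 16.8 in treatment, at 13980 bp.

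Granzyme C, a relative of granzyme B, had a start peak that was wide in control and narrow and weak in treatment. Gzmc (gene ID 14940) spans chromosome 14, 56231397 to 56241647, on the minus strand, and its listed start site, 56234657, lies inside that span. The control start peak was 1153 bp wide with 199 reads, and the treatment peak was 229 bp wide with 45 reads, a ratio of 0.226 (0.160 to 0.314) and the lowest of the 48 pairs. The treatment peak had a −log10 q-value of 8.0, against 139.5 in control, and 10.4% of the treatment list had a lower fold. A peak 5987 bp before that start site, also inside the span, had 389 and 230 reads, a ratio of 0.591 (0.50 to 0.698), with the highest fold of the Gzmf and Gzmc windows in control (17.5).

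The remaining granzyme genes of chromosome 14 had no start peak in either library. A start peak within 1 kb was found at 5 of the 10 genes in both libraries, namely Gzmb, Gzmc, Gzma, Gzmm and Prf1, and at 0 of them in a single library. Of 17492 protein-coding genes with a listed start, 65.5% had a start peak in control, 61.8% in treatment and 3.88% in control only. Gzmf (gene ID 14943, chromosome 14, 56205263 to 56211407) had its nearest peak at the other end, with the summit 71 bp beyond the span. There a control peak of 1824 bp and 450 reads was covered by 2 treatment peaks, of 1096 bp and 258 reads on the same summit within 1 bp, and of 410 bp and 142 reads, 1001 bp away. Gzmg (gene ID 14944, 56156581 to 56159579) had its nearest peak 18244 bp before the start site, beyond Gzmn, with 114 and 73 reads.

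Gzmd (gene ID 14941, 56129556 to 56132603) and Gzme (gene ID 14942, 56117619 to 56120625) lay in a stretch without peaks. In control it ran from 56099393 to 56177563, or 78.2 kb, over Ctsg, Gzme, Gzmd, Gzmg and Gzmn. In treatment the stretch was 231.0 kb, from 55946559 to 56177581, and took in 11 protein-coding genes, the mast cell proteases among them. Inside the treatment stretch lay 5 control peaks. The first, of 69 reads, lay outside the windows, with 120.9 kb without a peak after it. The other 4 were control-only peaks of the windows, from Mcpt8, a basophil protease, to the near side of Ctsg, cathepsin G of neutrophils, with 93, 79, 69 and 167 reads and folds of 6.20, 5.28, 4.62 and 11.1. These 4 were all the window peaks of Gzme in control. A window without a treatment peak was found at 16.5% of all protein-coding genes, and one without a control peak at 14.6%. With lists of equal length, 2 of the 4 were left.

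Granzyme A, a tryptase, had a start peak whose highest point lay elsewhere in each library, and fewer reads in treatment at its 8 other shared peaks. Gzma (gene ID 14938) lies at chromosome 13, 113093824 to 113100981, on the minus strand, inside the span of Cdc20b, which is read the other way. In control a single peak of 1308 bp covered the start, with its summit 984 bp before the start site and 230 reads. In treatment the same stretch held 2 peaks, of 480 bp with the summit 27 bp before the start site and 248 reads, and of 255 bp with the summit 982 bp before it and 76 reads. At the control summit the treatment thus had 0.330 of the reads (0.252 to 0.430), while the treatment summit next to the start had 1.08 of the reads of the control summit (0.898 to 1.30, which includes 1), at a different place. The control coverage next to the start is not known from the lists. The Runx match printed in capitals was 18 bp from that treatment summit.

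Splitting of this kind was seen at 3 of the 48 shared peaks, at Gzma, Gzmm and Gzmf, against 1.02% of all shared control peaks. The summit lay over 150 bp away in treatment at 3 of 48, against 6.45% of all, namely the starts of Gzma and Gzmm and 1 further peak of the Gzma window. The lowest ratio near Gzma was at the peak 39095 bp after the Gzma start site, inside the Cdc20b span, with 438 and 103 reads, a ratio of 0.235 (0.188 to 0.292). The highest folds of the Gzma window in control were 21.7, 21.0 and 20.4, at 29805 bp after, 19857 bp before and 39095 bp after the start site. In treatment they were 17.2, 16.8 and 14.3, at 34091 bp before, 29805 bp after and 19857 bp before it.

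**Figure D4:**
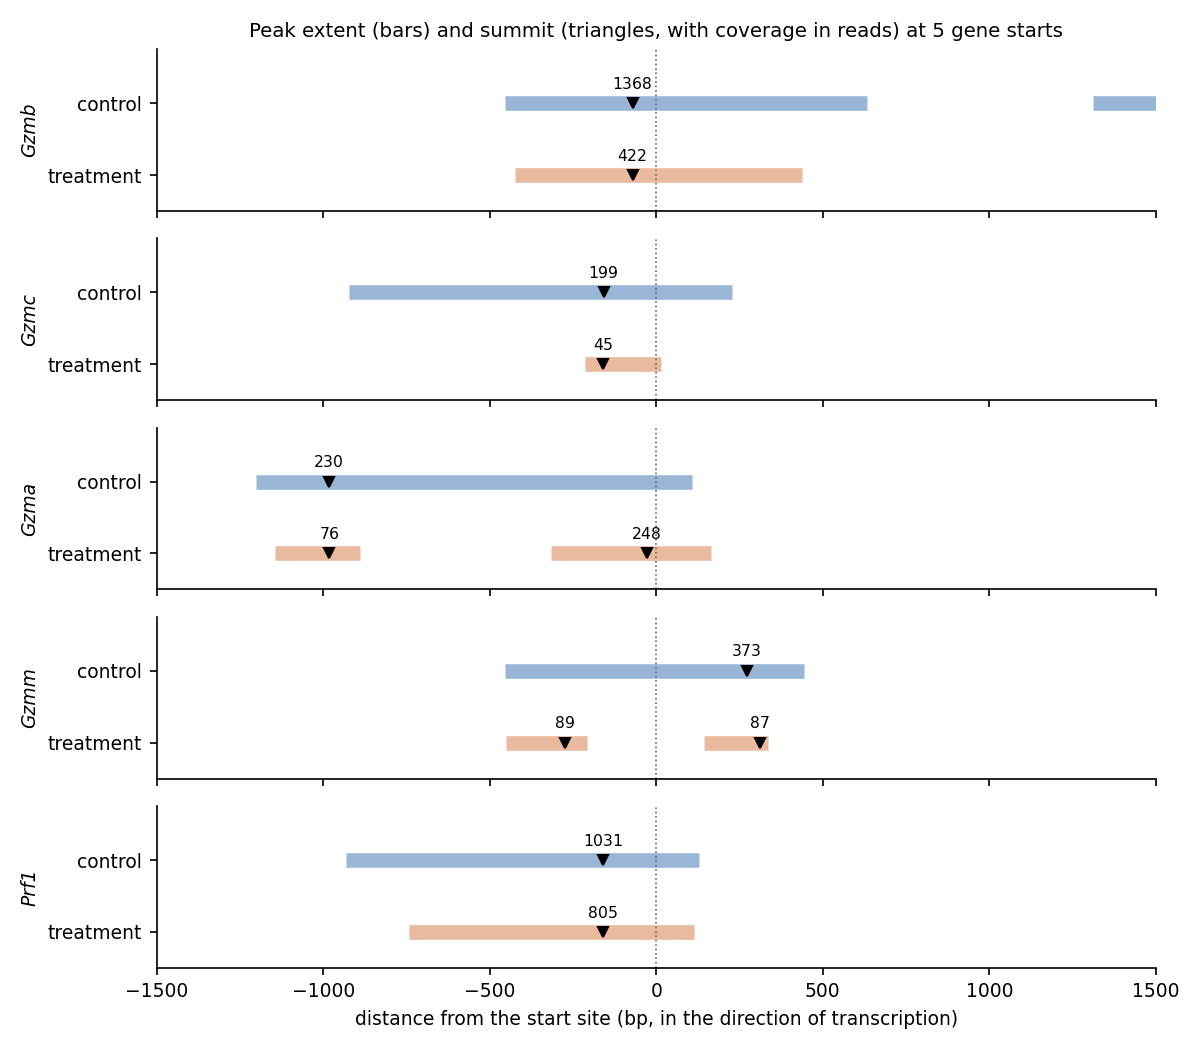
Extent (bars) and summit (triangles, labelled with coverage in reads) of the peaks at the 5 start sites that had one, by distance in bp from the start site in the direction of transcription, control above treatment. The Gzmb and Prf1 summits lie on the same base in both libraries, while single control peaks at Gzma and Gzmm are covered by 2 treatment peaks each. The bar cut off at the right of Gzmb is a control-only peak inside the gene.

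Granzyme K is another tryptase and a marker of memory-like CD8+ T cells. The peaks nearest to it had a higher median ratio of coverage than those of Gzma, though none lay at its start. Gzmk (gene ID 14945) lies at chromosome 13, 113171630 to 113180965, on the minus strand, 70649 bp beyond Gzma. Its nearest shared peak, 1118 bp past the end of the gene, had 213 and 181 reads, a ratio of 0.850 (0.693 to 1.04). The peak 17120 bp before the start site had 539 and 456 reads, a ratio of 0.846 (0.745 to 0.960), and the highest fold of the peaks nearest to Gzmk, 18.1 and 17.6. The 2 peaks at Esm1, an endothelial gene, had 146 and 109 reads, and 206 and 97 reads. The median ratio of the 4 was 0.796, above the 0.708 of all shared peaks, while the 9 of Gzma had a median of 0.537. The Esm1 peak with 206 and 97 reads, at 0.471, lay below that median. A peak 34076 bp before the Gzma start site, with 773 and 415 reads and a ratio of 0.537, lies in both windows. It was counted with Gzma, the nearer gene. The difference between the 2 genes was not tested. The 1 control-only peak, 2986 bp past the end of Gzmk, had 100 reads.

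**Figure D5:**
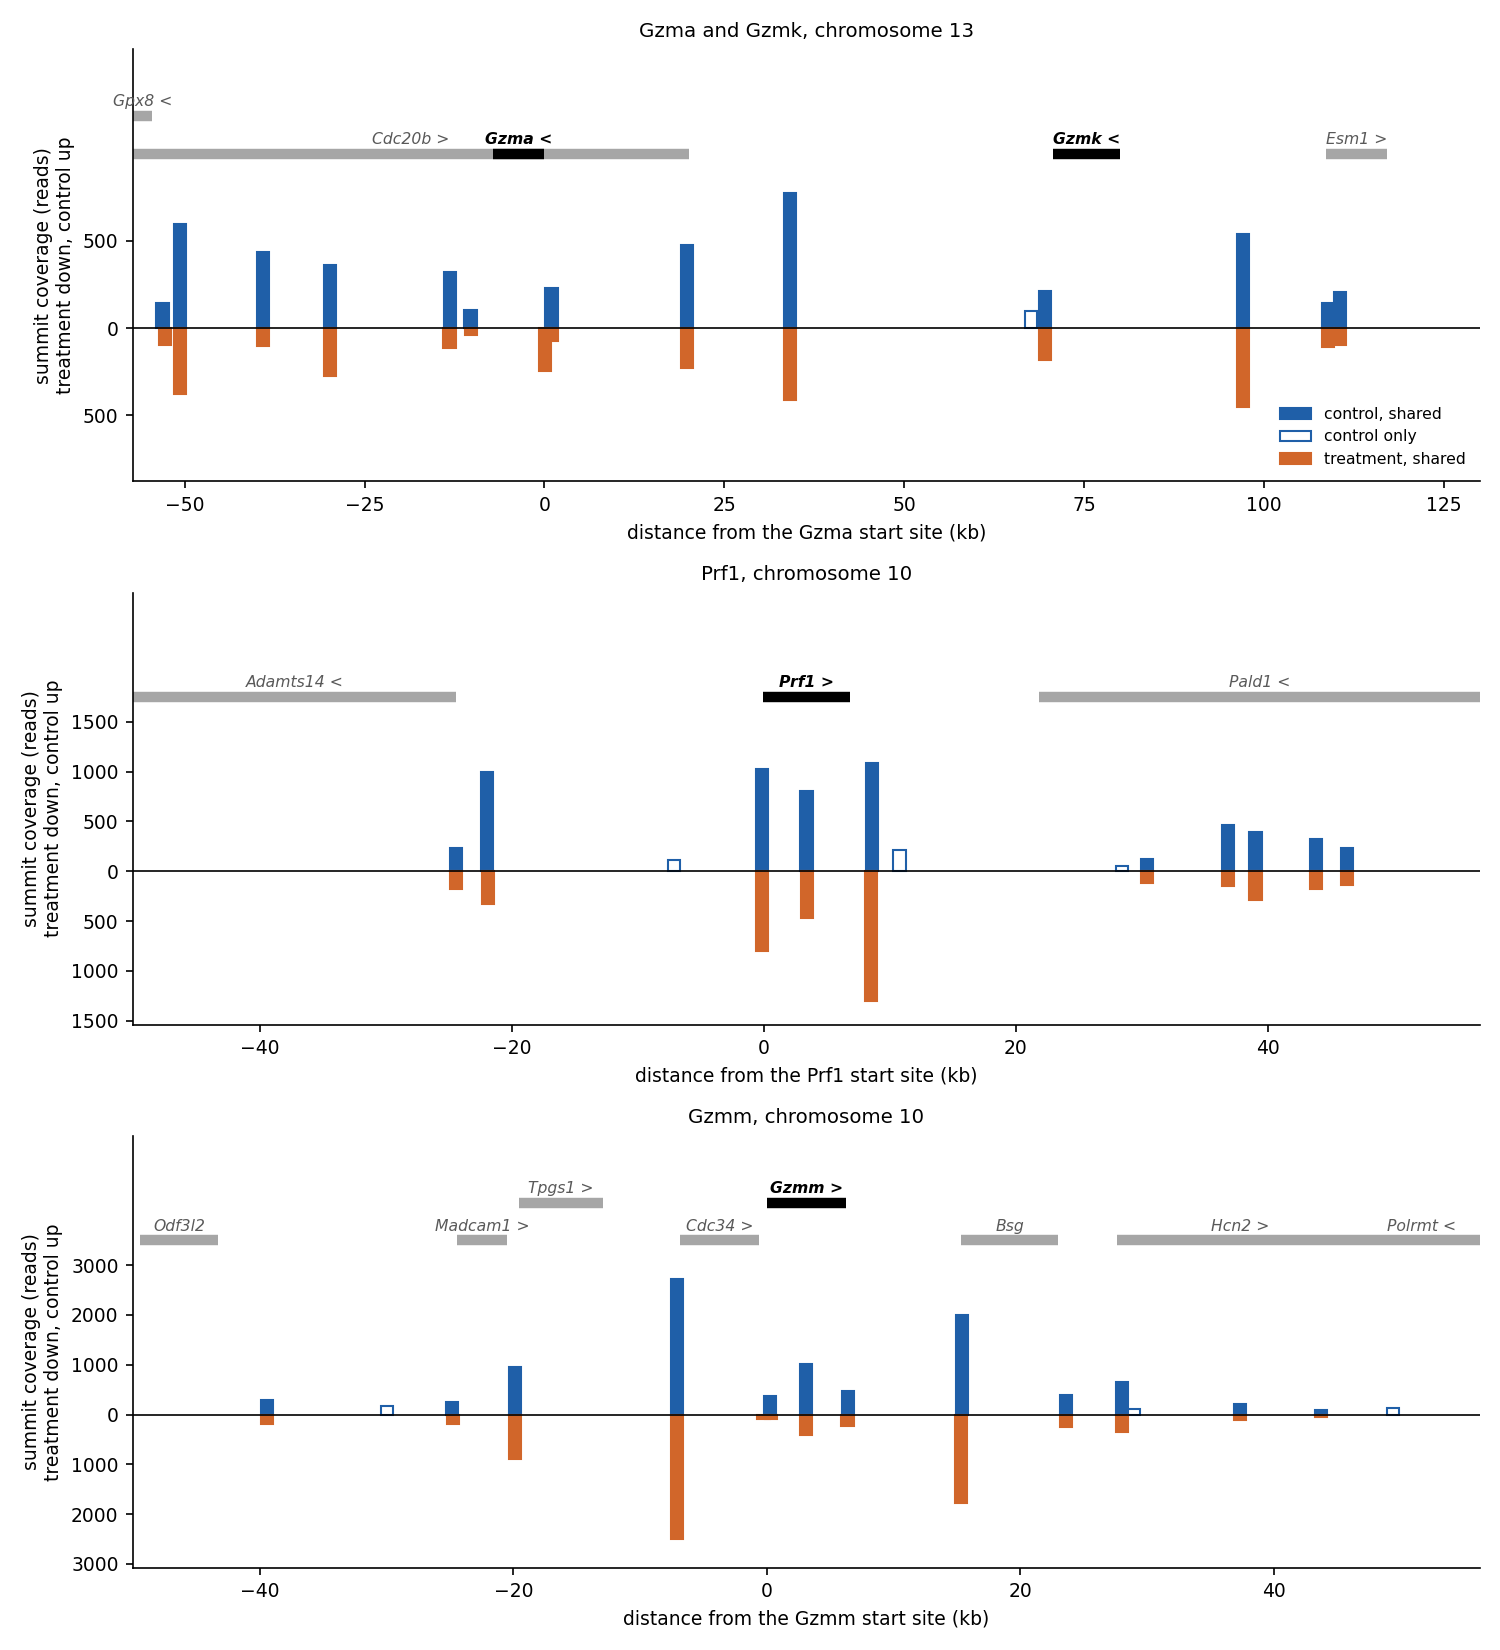
Summit coverage in reads, control upward and treatment downward, around Gzma and Gzmk (top), Prf1 (middle) and Gzmm (bottom), by distance in kb from the start site of Gzma, Prf1 or Gzmm. Bars have a fixed width, open bars are control-only peaks, and grey boxes are neighbouring protein-coding genes. The treatment bar beyond Prf1 reaches 1303 reads against 1084 in control, while the bars at Cdc34 and Bsg are nearly even.

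Granzyme M, which cuts after methionine and is best known from NK cells, had far fewer reads at its start in treatment, in a window whose other start peaks ranged from nearly even to lower by more than 1.5-fold. Gzmm (gene ID 16904) lies at chromosome 10, 79689020 to 79695261, on the plus strand, 622 bp beyond Cdc34. At the first of its 2 listed start sites, the control peak of 898 bp had 373 reads, with the summit 271 bp after the start site. It was covered by 2 treatment peaks, of 245 bp and 89 reads, and of 193 bp and 87 reads, ratios of 0.239 (0.187 to 0.301) and 0.233 (0.183 to 0.295). Inside the gene a peak on the same base in both libraries, 79692129, had 1010 and 404 reads, a ratio of 0.40 (0.356 to 0.449), and one at its end had 472 and 226 reads.

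The neighbouring peak at the start of Cdc34, a ubiquitin-conjugating enzyme, had 2722 and 2501 reads. The peak at the start of Tpgs1 had 953 and 884 reads, and the one at the near edge of the span of Bsg, which encodes basigin, 1991 and 1786. Their ratios were 0.919 (0.870 to 0.970), 0.928 (0.846 to 1.02) and 0.897 (0.841 to 0.957), above the intervals of the Gzmm peaks. The peak near the start of Madcam1 had 254 and 186 reads, a ratio of 0.732 (0.603 to 0.888). The peak at the start of Hcn2 had 658 and 361 reads, a ratio of 0.549 (0.481 to 0.625), which overlaps the interval of the peak at the end of Gzmm (0.479, 0.407 to 0.562). The 3 control-only peaks of the window had 171, 112 and 131 reads and lay outside Gzmm, the latter pair in Hcn2 and Polrmt. The highest fold of the window was the Bsg peak in both, 19.7 and 20.1.

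Set side by side, the start peaks of the 5 genes differed in their ratios. Gzmc, Gzmm and Gzmb had 0.226, 0.239 and 0.308 of the control coverage, each lower by more than 3-fold. Prf1 had 0.781, with an interval that does not overlap theirs. The Gzmm value pairs summits 544 bp apart, and the other treatment peak there, 40 bp from the control summit, gave 0.233. The ratio of Gzma depended on the place. It was 0.330 (0.252 to 0.430) at the control summit, which overlaps the intervals of Gzmb, Gzmc and Gzmm, and 1.08 between the highest summits. Over all 48 shared peaks, 6 were lower by more than 3-fold, against 6.57% of all shared peaks. Away from gene starts, 28 of 37 were lower by more than 1.5-fold, against 47.9% of such peaks in the genome. At the starts of any protein-coding gene it was 4 of 11, against 24.5%. These 11 include starts of neighbouring genes, and Hcn2, at 0.549, is among the 4. The intervals cover counting error only and say nothing of the spread between cultures or animals.

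The control-only peaks were mostly weaker than the shared control peaks of the same windows. Their coverage ran from 51 to 221 reads with a median of 112, and that of shared control peaks from 86 to 2722 with a median of 393.5. The ranges overlapped. All 13 control-only peaks of the windows lay away from the start sites of the 10 genes, at 7112 bp or more except the pair inside Gzmb. The peak of 93 reads, from 56085057 to 56085436, lay near the upstream edge of the span of Mcpt8, 56085499.

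Among other genes of the granule pathway, fixed as a list of 20 with earlier results known, 17 of 19 had fewer window peaks in treatment, 1 more (Gzmn) and 1 as many (Nkg7), against the 67% with fewer over all genes. Vamp7 had no usable position. The summed counts of the 19 were 228 in control and 172 in treatment, with peaks of overlapping windows counted more than once. Over the summed windows of all coding genes the ratio of treatment to control was 0.785. The median window of the list held 13 control peaks, against 9 over all genes, so the 67% is not a like base. The largest differences were at Stxbp2 (19 and 9), which encodes the syntaxin partner Munc18-2 needed for granule release, Lamp1 (13 and 5), a membrane protein of the granules, and Unc13d (17 and 10), the priming factor Munc13-4. Lyst, a regulator of granule size, had 19 and 14, Rab27a, which docks the granules, 18 and 14, and Cd63, Serpinb6b and Tnfsf10 16 and 13, 10 and 7, and 11 and 8. Windows of 50 kb reach into other genes here. Against the same 65.5% and 61.8%, a start peak was found in both libraries at 17 of 18 of these genes with a listed start, all but Gzmn, a granzyme gene between Gzmg and Gzmf that had 2 and 3 window peaks.

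The genes of factors known to act on these loci had 154 summed window peaks in control and 126 in treatment. Over the summed windows of all coding genes the ratio of treatment to control was 0.785. Peaks in overlapping windows were counted more than once in these sums. Of the 8 genes, 7 were lower and 1 equal, against 67% lower and 27.7% equal over all genes. Their median window held 19.5 control peaks, against 9 over all genes, so the 67% is not a like base. Prdm1, which encodes Blimp-1, had 20 and 12, Runx3 31 and 25, Tbx21 (T-bet) 23 and 19, and Eomes 12 and 9. Stat5a and Stat5b, which carry interleukin-2 signals, had 19 and 16, and 26 and 23, Bhlhe40 8 and 7, and Notch1 15 and 15. All 7 with a listed start had a start peak in both libraries, against 65.5% of all genes in control and 61.8% in treatment.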

How the data were processed

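ATAC-seq peaks of mouse CD8+ T cells were used, 1 deposited list per library. Reads were handled with cutadapt 2.5, Bowtie2 2.3, Picard 2.20 and MACS2 on build mm10, per the submitters' processing notes. Settings, read shifting and the handling of duplicates or multiply mapped reads are not given in the sources used here. For each peak the authors deposited a score, a fold enrichment (a ratio to the local background), and a −log10 p-value and −log10 q-value, called per library.

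Only peaks on the 19 autosomes, X and Y were used. Shared means an overlap of at least 1 bp. Coverage is the whole number of reads that gives both the fold and the −log10 p-value, to within 0.001, and was found for all 112 window peaks and for 99.994% of control and 99.98% of treatment peaks. Recovery, sharing and window counts were tested on simulated data. Ratio intervals are exact conditional binomial ones. They and the Wilson intervals cover counting error only. Gene positions and promoters are RefSeq's for GRCm38.p6, and 108 of 21887 coding entries lying in the first 3 Mb of a chromosome other than Y were left out. Promoters were aligned end to end with Biopython 1.88. Scripts ran in Python 3.11.15 with SciPy 1.17.1.

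All 10 members are named, with their start peaks, single-library peaks and the strongest peaks of each window. Pathway genes are named where counts differ by at least 3. The members and lists were chosen with earlier results of these data known. Alternatives were lists of equal length, stricter q-values, other windows and other overlaps.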

Additional observations from a re-analysis of the deposited data

How the results depend on the processing

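The part of control peaks that was shared, 78.7%, was 88.5% (46 of 52) with lists of equal length, where the weakest control peaks are removed by construction. Over the whole control list the part moved the same way, from 70.8% to 83.3%. In the windows it kept within its interval under the other alternatives. The part of treatment peaks that was shared, 100%, was 80.4% with a reciprocal overlap of 50%, and 92.2% where summits had to lie within 150 bp. The shares of the whole treatment list at these settings were not worked out. The number of genes with fewer window peaks in treatment, 8 of 10, was 4 with lists of equal length, 3 with 10 kb on each side and 1 with the gene span alone, where 31.3%, 44.9% and 30.5% of all coding genes had fewer. The last 2 settings count fewer peaks. The 66.7% of shared peaks with coverage lower by more than 1.5-fold was 80% (8 of 10) with the gene span alone. It lay between 60% and 68.1% otherwise, and the 43.7% of all shared peaks was not worked out again under these alternatives. That quantity, its alternatives and the minimum of 100 reads were chosen after seeing the data.

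Treatment minus control peaks reversed at Gzmb (1), Gzmc (2) and Gzmf (1) with lists of equal length, at Gzmm (1) and Gzmf (1) with 10 kb on each side, and at Gzma (-2) with at least 100 reads. The cause was not tested. No paired analysis was possible because each group has 1 library. Peaks absent from a list may lie under the calling limit, where coverage is unknown.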

Other observations

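The local background at the shared peaks nearest to Gzmb, as recovered with the coverage, ran up to 139.0 reads in control and 84.1 in treatment. At those nearest to Gzmm it ran up to 173.1 and 142.1 reads.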
